A study of Homo sapiens with 4 samples.

Results

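The peaks of FOXK2 at promoters of protein-coding transcripts were examined in OVCAR-5 cells. They are the peaks whose deposited annotation places them at the promoter-TSS of a transcript with an NM accession, that is, a RefSeq messenger RNA. By this rule, 2288 of 12471 peaks of replicate 1 (18.3%, Wilson 95% interval 17.7% to 19.0%) and 4134 of 27281 peaks of replicate 2 (15.2%, 14.7% to 15.6%) were coding promoter peaks. The lists shared 1771 overlapping pairs of such peaks. The study immunoprecipitated FOXK2 from crosslinked, sonicated chromatin of OVCAR-5, a human ovarian cancer line that the labels give as high grade serous, from ascites, at passage 4 to 6. There were 4 samples, 2 FOXK2 ChIP-seq replicates (FOXK2_ChIP) and 2 inputs, all of 1 condition. The inputs were not analysed here. No expression was measured in these files, so a peak gives occupancy in 1 cell line and nothing about whether a gene is transcribed.

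FOXK2 is a transcription factor of the forkhead family, whose DNA-binding domain typically recognises a short core related to TGTTTAC. FOXK2 and its relative FOXK1 are known as regulators of autophagy, glucose metabolism and insulin-responsive genes, often at sites that FOXO factors can also bind. A promoter is the DNA around a transcription start site (TSS), where RNA polymerase II is loaded, and most promoters of broadly expressed human genes lie in CpG islands, which are rich in G and C.

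The sequence around the centre of a peak is shown for 6 of the 15 best-scoring shared peaks, the ones whose genes were matched in the RefSeq promoter table (GRCh38.p14) and which show both kinds of site described in the text. Each run holds up to 60 bases to each side of the replicate 1 centre on the gene's strand, ends at most 30 bases past the gene's start, and was read from hg38. The first 3 hold the heptamer TGTTTAC, in capitals on whichever strand it was found (GTAAACA is the other strand). They are from HBP1 (chr7:107168567-107168687, plus strand), DHX40 (chr17:59565524-59565639, plus strand) and KLHDC2 (chr14:49768059-49768179, plus strand).
HBP1: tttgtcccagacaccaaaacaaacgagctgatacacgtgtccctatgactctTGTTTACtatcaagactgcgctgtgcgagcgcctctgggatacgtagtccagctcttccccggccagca
DHX40: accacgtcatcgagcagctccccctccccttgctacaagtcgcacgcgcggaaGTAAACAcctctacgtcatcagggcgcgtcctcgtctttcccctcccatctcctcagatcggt
KLHDC2: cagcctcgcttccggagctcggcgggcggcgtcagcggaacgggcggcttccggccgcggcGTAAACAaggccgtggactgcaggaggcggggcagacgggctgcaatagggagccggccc
The other 3 hold no TGTTTAC within 100 bp of the centre. Capitals there mark TGTT, the first 4 letters of the heptamer, or AACA, its other strand. This word is common, and was also in 53.4% of the control promoters described below. They are from WIPI1 (chr17:68457781-68457901, minus strand), H1FX (chr3:129316278-129316398, minus strand, RefSeq symbol H1-10) and ERLEC1 (chr2:53786904-53787024, plus strand).
WIPI1: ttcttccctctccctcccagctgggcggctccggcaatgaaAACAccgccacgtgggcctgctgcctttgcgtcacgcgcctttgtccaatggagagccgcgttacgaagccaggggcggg
H1FX: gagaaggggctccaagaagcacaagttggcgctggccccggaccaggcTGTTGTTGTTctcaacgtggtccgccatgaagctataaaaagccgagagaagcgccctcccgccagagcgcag
ERLEC1: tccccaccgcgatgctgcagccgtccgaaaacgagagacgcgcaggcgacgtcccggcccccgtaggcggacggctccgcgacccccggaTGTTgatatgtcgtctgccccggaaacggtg

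The strongest FOXK2 peaks of the whole series lay at coding promoters. FBXO32, which codes for the muscle ubiquitin ligase atrogin-1, had the highest peak score of both lists (188.3 in replicate 1 and 387.9 in replicate 2). The score is the HOMER value of each peak, scaled to its own library, and only its rank within a list is compared here. NDUFAF6, an assembly factor of respiratory complex I, ranked 2 in both (104.9 and 224.1). WIPI1, which binds phosphoinositides on the growing autophagosome, ranked 3 in both (78.1 and 165.5), and WEE1, the kinase that restrains entry into mitosis, ranked 4 in both (77.2 and 146.5). These 4 genes thus held the same order at the top of each list. FBXO32 and NDUFAF6, like PCMTD1 further down, lie on chromosome 8, where the median score percentile of coding promoter peaks was the highest of all chromosomes (84.2 in replicate 1 and 85.7 in replicate 2) and that of other peaks was too (72.8 and 71.7). Its part in these ranks was not tested.

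The next 11 pairs by mean score percentile covered several kinds of genes. HIBADH, a dehydrogenase of valine breakdown, ranked 7 and 6 in replicates 1 and 2. Among transcription factors, TFAP4 ranked 6 and 11, ETV5 ranked 9 and 5, and HBP1, a repressor of cell cycle genes, ranked 5 and 14. The linker histone gene H1FX ranked 10 and 8, the helicase gene DHX40 ranked 11 and 13, and KLHDC2, a substrate receptor of a ubiquitin ligase, ranked 15 and 9. PCMTD1 (20 and 20), the adaptor gene GRB7 (23 and 19) and ERLEC1 (29 and 16), a lectin of the endoplasmic reticulum, were also among the 15. None of the genes named here fell below rank 29 in either list.

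Coding promoters were over-represented among high scores in both lists. In replicate 1, 366 of 2288 coding promoter peaks (16.0%, Wilson 95% interval 14.6% to 17.6%) were in the top 10% of the list, against 896 of 10183 other peaks (8.80%; odds ratio 1.97, p = 1.3e-22, Fisher's exact test, two-sided as in all that follow). The counts of replicate 2 were 715 of 4134 (17.3%, 16.2% to 18.5%) and 2039 of 23147 (8.81%; odds ratio 2.16, exact p = 9.9e-55). Peaks are not replicates, so such p-values measure counting error within 1 library, and the direction was read in both lists. Coding promoter peaks had a median score percentile of 59.7 (replicate 1) and 65.2 (replicate 2), and other peaks one of 49.1 and 46.9. Of the peaks ranked 100 or better, ties included, 57 (55.3%) in replicate 1 and 62 (61.4%) in replicate 2 were at coding promoters.

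Most coding promoter peaks of replicate 1 had a partner in replicate 2, and fewer of the longer replicate 2 list had one in replicate 1. By an overlap of 1 bp or more with any peak of the other list, 1814 of 2288 (79.3%, 77.6% to 80.9%) and 1827 of 4134 (44.2%, 42.7% to 45.7%) were recovered. For 43 recovered peaks of replicate 1 the partner was not itself a coding promoter peak. Over the 1771 pairs the same nearest gene was given 1717 times, and centres lay a median of 29.0 bp apart. The score percentiles of the pairs correlated with a Spearman's rho of 0.892, a description across peaks that share 2 libraries.

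**Figure D1:**
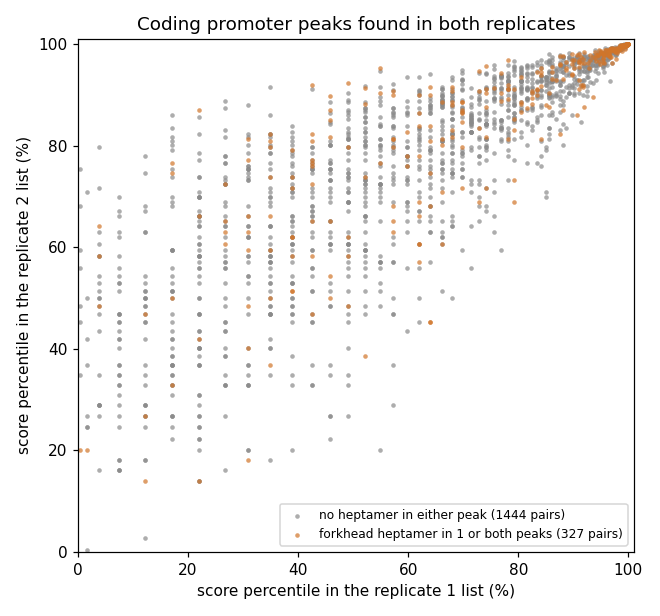
Score percentile within its list (%) of each shared coding promoter pair, replicate 1 on the x axis and replicate 2 on the y axis, with the 1444 pairs without TGTTTAC in grey and the 327 with it in 1 or both peaks in orange. The points spread at low percentiles and close up towards the top right corner, where the orange points gather (rho 0.892 over all 1771 pairs).

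Coding promoter peaks were recovered more often than other peaks (79.3% against 73.9% in replicate 1, odds ratio 1.35, p = 6.8e-08; 44.2% against 32.5% in replicate 2, odds ratio 1.65, p = 4.6e-47; Fisher's exact tests). Each of the next choices left the difference in 1 replicate only. With lists of equal length the shares were 67.4% and 58.3% in replicate 1 (odds ratio 1.48, exact p = 5.0e-16). In replicate 2 they were then 60.8% and 59.7% (odds ratio 1.05, exact p = 0.308). In the higher-scoring 50% of each list they were 88.5% and 87.2% in replicate 1 (odds ratio 1.12, exact p = 0.221). Those of replicate 2 were 45.7% and 40.4% there (odds ratio 1.24, exact p = 6.1e-07). Within score quartiles a higher recovery passed the test only in the lowest quartile of both lists and the next one of replicate 2. In the lowest score quartile of each list 55.5% against 50% of peaks were recovered in replicate 1 (Fisher's exact p = 0.0395) and 6.76% against 4.68% in replicate 2 (exact p = 0.0372), and in the next quartile 68.5% against 67.6% (exact p = 0.722) and 22.6% against 17.9% (exact p = 0.00109). Within the highest score quartile of each list the shares were 95.8% and 96.5% in replicate 1 (odds ratio 0.817, exact p = 0.325) and 75.4% and 75.2% in replicate 2 (odds ratio 1.01, p = 0.920). In the third quartile the shares were 84.1% and 85.1% in replicate 1 (odds ratio 0.927, exact p = 0.558), and in replicate 2 the order turned, with 36.1% of coding promoter peaks and 39.8% of other peaks recovered (odds ratio 0.856, exact p = 0.0219). The higher share of coding promoter peaks in replicate 1 changed with list length. With both lists limited to 12471 peaks it was 18.3% in replicate 1 and 20.5% in replicate 2, against 18.3% and 15.2% as deposited (odds ratio 1.26, exact p = 1.9e-15).

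The best-scoring coding promoter peaks without a partner were less extreme than the shared ones. In replicate 1 they were at EIF3B, a subunit of a translation initiation factor (score 14.0, rank 742), TUT1 (11.5), TTI2 (11.3), MPLKIP (10.9) and SELENOH (10.8). The peak at EIF3B lay 648 bp upstream of the TSS, and EIF3B also had a shared peak, at score percentiles of 96.8 and 99.3. In replicate 2 they were at MARK2, a microtubule-associated kinase (31.5, rank 478), BBS9, a ciliary gene (28.9), CAPN13 (26.6), FAM227B (24.4) and LSG1 (22.9). Among these 10 peaks only the one at CAPN13 held TGTTTAC. Unshared coding promoter peaks had median percentiles of 34.8 and 48.5 in the 2 lists, and shared ones 68.0 and 83.4.

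Coding promoter peaks sat just upstream of the TSS in both lists. The rule bounds this distance, so it is a description. The median distance of the centre to the nearest TSS was -49.0 bp in replicate 1 (quartiles -161 and 22.2) and -48.0 bp in replicate 2 (-151 and 21.0), negative values being upstream. The centre was upstream in 66.8% and 66.6%, and within 100 bp of the TSS in 57.6% (1318 peaks) and 60.4% (2496 peaks). More than 500 bp upstream lay 6.38% and 6.80%. Among peaks whose nearest TSS was that of the annotated transcript, the median was -75.0 and -74.5 bp and the distance ran from -989 to 100 bp in both lists. Over all coding promoter peaks, centres lay up to 914 and 948 bp downstream of the nearest TSS, which need not be that of the annotated transcript.

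**Figure D2:**
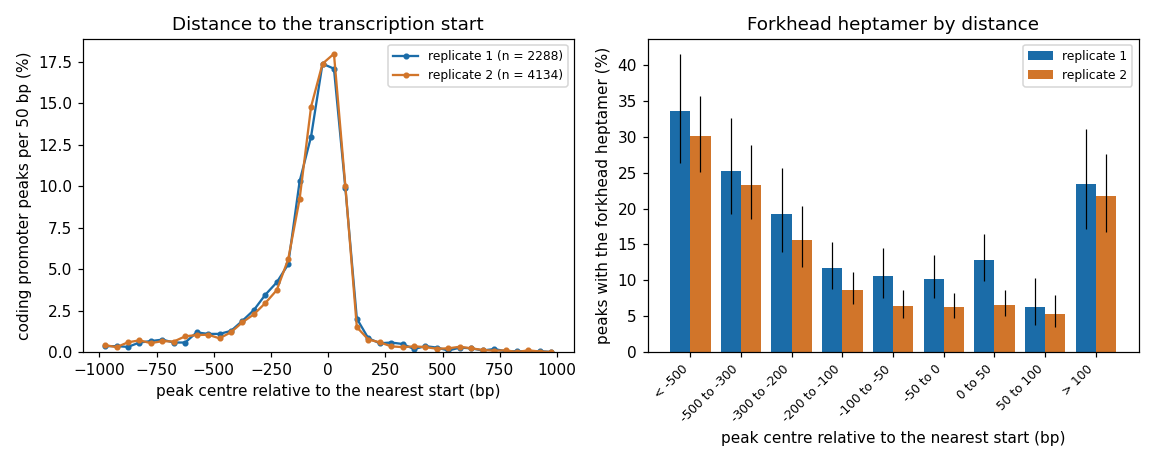
Left, share of coding promoter peaks (%) per 50 bp of distance from the peak centre to the nearest TSS, negative upstream, for replicates 1 and 2. Right, share of peaks with TGTTTAC (%) by distance class, with Wilson 95% intervals as bars: both replicates peak near the TSS on the left and are lowest near it on the right (10.4% and 6.29% within 100 bp).

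Coding promoter peaks held the forkhead heptamer less often than FOXK2 peaks elsewhere. TGTTTAC, on either strand within 100 bp of the centre, was in 333 of 2288 coding promoter peaks of replicate 1 (14.6%, 13.2% to 16.1%) and in 443 of 4134 of replicate 2 (10.7%, 9.81% to 11.7%). In the other peaks of the same lists it was in 34.1% (odds ratio 0.329, exact p = 8.1e-84) and 31.3% (odds ratio 0.264, p = 2.2e-188). Windows of the same length 2000 bp to each side of the coding promoter peaks held it in 2.58% and 2.90%, and peaks at promoters of noncoding transcripts in 13.5% and 12.0%. The heptamer was thus above its flanks and below the other peaks in both replicates. More than 1 copy was found in only 6 and 11 coding promoter peaks.

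Base composition differed as well. The median share of G and C in windows of 100 bp to each side of the centre was 63.7% at coding promoters in both lists, against 44.8% and 44.3% in other peaks. Few coding promoter windows had at most 45% G and C. There TGTTTAC was in 36.2% of 138 coding promoter peaks and 37.9% of 5094 other peaks of replicate 1 (odds ratio 0.932, exact p = 0.723), and in 35.5% of 248 and 35.9% of 12128 in replicate 2 (odds ratio 0.983, p = 0.947). Between 55% and 65% it was in 12.5% against 31.7% (odds ratio 0.307, exact p = 4.9e-25) and in 8.88% against 26.9% (odds ratio 0.265, p = 5.1e-46). From 45% to 55% the odds ratios were 0.555 and 0.533. Above 65%, the band with the most coding promoter peaks (1002 and 1883), the shares were 10.8% against 15.6% (odds ratio 0.656, exact p = 0.00491) and 6.48% against 10.5% (odds ratio 0.588, exact p = 5.2e-05). The gap between both kinds of peak was thus widest from 55% to 65%, narrower above and below, and not detectable in the windows poorest in G and C.

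Among coding promoter peaks, the heptamer went with height and recovery. In replicate 1, 94.3% of 333 peaks with TGTTTAC were recovered in the other list, against 76.7% of 1955 without it (odds ratio 5.01, exact p = 4.1e-16). In replicate 2 the shares were 72.5% of 443 and 40.8% of 3691 (odds ratio 3.82, exact p = 4.4e-37). Peaks with TGTTTAC had median score percentiles of 84.2 and 87.9 in replicates 1 and 2, against 54.9 and 61.9 without it. Recovery rose with score, and this comparison was not split by score. Unshared peaks held the heptamer in 4.01% and 5.29%, closer to the flanks than to the shared peaks (17.3% and 17.6%). Within the top 10%, 38.5% (33.7% to 43.6%) and 28.8% (25.6% to 32.2%) of coding promoter peaks held it. Of the 15 best pairs, 10 held it in both peaks, as did 58 of the best 100 and 40 of the lowest 500 pairs (8.0%, 5.93% to 10.7%).

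**Figure D3:**
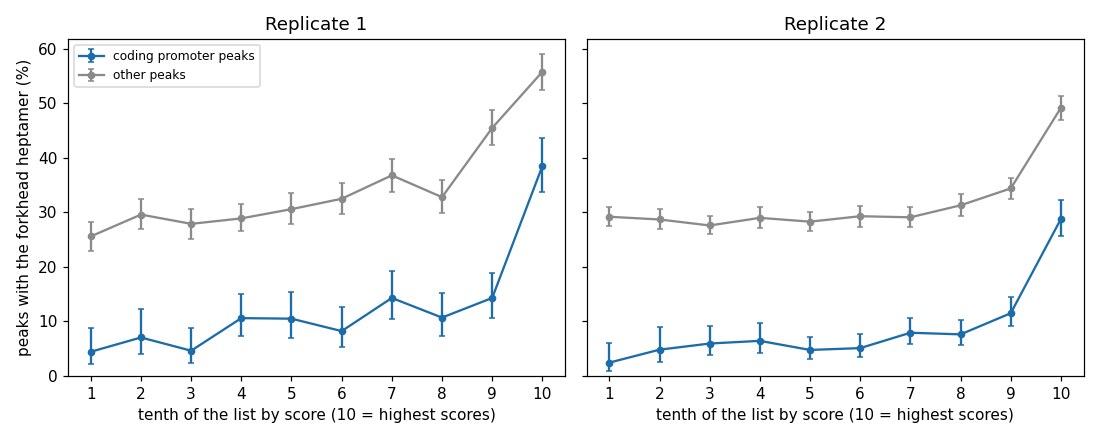
Share of peaks with TGTTTAC within 100 bp of the centre (%) by score, in 10 classes of each list, for coding promoter peaks (blue) and other peaks (grey) of each replicate, with Wilson 95% intervals. The blue points rise to 38.5% and 28.8% in the highest class and stay below the grey points in every class of both lists.

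Peaks with the heptamer were also more focused. Their median focus ratio, the share of a peak's tags on the expected side of its centre, was 0.80 and 0.807, against 0.727 and 0.719 for coding promoter peaks without it. Copies of TGTTTAC lay close to the peak centre. Their median distance from the centre was 19.0 bp over 339 copies in replicate 1 and 16.0 bp over 454 copies in replicate 2, with 53.4% and 60.1% within 20 bp. Pairs with the heptamer in both peaks had centres a median of 19.0 bp apart, and pairs without it 32.0 bp. The share with the heptamer also changed with distance to the TSS, a split chosen after the data were seen. It was 29.3% of 304 peaks at least 300 bp upstream against 10.4% of 1318 peaks within 100 bp in replicate 1 (odds ratio 3.57, exact p = 2.8e-15), and 26.9% of 535 against 6.29% of 2496 in replicate 2 (odds ratio 5.49, p = 6.6e-38). The median share of G and C was 57.0% and 55.7% in the distant peaks and 65.2% and 65.7% in the near ones.

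Of the 8 forkhead heptamers searched, TGTTTAC was the only one above the flanks. TGTTTAT was in 4.63% and 4.57% of coding promoter peaks against 4.81% and 5.12% of flanks, TGTTTGC in 2.49% and 2.71% against 2.97% and 2.93%, and TATTTAC in 2.84% and 3.02% against 3.10% and 3.12%, none of them past an adjusted p of 0.05. TGTTTGT was at 3.93% and 3.46% against 4.85% and 5.19%, lower than the flanks in replicate 2 (adjusted p = 1.4e-05) but not in replicate 1 (adjusted p = 0.120, Fisher's exact tests). Each of TATTTAT and TATTTGC, and TATTTGT as well, was lower than the flanks in both lists (odds ratios 0.238 to 0.410). The flanks differed from the peaks in base makeup too. GGGCGGG was in 36.0% and 37.8% of coding promoter peaks against 2.32% and 2.60% of flanks. TATAAAA was in 0.918% and 1.16% against 7.01% and 6.36%. The part of base makeup in these comparisons was not tested.

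Motifs of the usual promoter factors, searched on both strands, were frequent in these peaks. The GC box GGGCGGG, the site of SP factors, was in 36.0% and 37.8% of coding promoter peaks against 5.68% and 5.38% of other peaks (odds ratios 9.35 and 10.7). The ETS site CCGGAAG was in 19.0% of both against 2.69% and 2.38% (8.49 and 9.61), the E-box CACGTG in 11.1% and 10.4% against 4.88% and 4.27% (2.43 and 2.61) and the CRE TGACGTCA in 2.53% and 3.22% against 0.422% and 0.372% (6.13 and 8.91). The AP-1 site TGACTCA went the other way, with 3.41% and 2.93% at coding promoters and 19.4% and 19.0% elsewhere (0.147 and 0.128, p adjusted over all motifs and lists 7.6e-100 and 1.1e-194). At coding promoters AP-1 did not stand above the flanks (2.58% and 2.70%, exact adjusted p = 0.0703 and 0.547). A match is a run of letters in the window and not a measured site.

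Since promoters share these motifs whether or not FOXK2 is there, promoters were also compared with promoters. RefSeq windows of 250 bases before to 50 after a coding start (GRCh38.p14) were taken, 22198 windows of 15842 genes. A shared FOXK2 peak lay from 1000 bp before to 100 bp after the start in 1946 of them. TGTTTAC was in 9.04% of these and 2.25% of the other windows (2.85% of all; odds ratio 4.32, exact adjusted p = 7.8e-45). This was the largest odds ratio of the 18 motifs for shared peaks. With a peak in either replicate it was 2.05, below those of ETS (3.40), YY1 (2.41), ZBTB33 (2.33) and NRF1 (2.26). For shared peaks 4 other forkhead heptamers did not pass. These were TGTTTAT (3.49% against 3.12%; 3.15% of all), TGTTTGC (3.08% against 3.43%; 3.40% of all), TGTTTGT (3.85% against 4.36%; 4.31% of all) and TATTTAC (2.16% against 2.01%; 2.03% of all). The ETS site followed with 27.2% against 11.5% (12.8% of all; odds ratio 2.88, exact adjusted p = 2.8e-70), then the YY1 site AAGATGGC with 6.83% against 3.21% (3.53% of all; 2.21, adjusted p = 4.2e-13).

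Most other promoter motifs were higher by less. The NRF1 site CGCATGCG was in 4.37% against 2.31% (2.49% of all; odds ratio 1.93), the E-box in 13.9% against 7.81% (8.34% of all; 1.90), the CRE in 3.75% against 2.11% (2.26% of all; 1.81), the ZBTB33 site CTCGCGAG in 2.26% against 1.29% (1.38% of all; 1.77), the GC box in 49.6% against 41.6% (42.3% of all; 1.38) and the CCAAT box in 40.1% against 34.2% (34.7% of all; 1.29). The TATA box TATAAAA was lower, with 1.64% against 3.78% (3.59% of all; 0.425, exact adjusted p = 4.2e-07). AP-1 was lower too, with 3.08% against 4.1% (4.01% of all; 0.744, exact adjusted p = 0.0405). In all, 9 motifs were higher and 5 lower at an adjusted p under 0.05 in Fisher's exact tests, TATTTAT (2.42% against 3.86%; 3.73% of all), TATTTGC (1.39% against 2.51%; 2.41% of all) and TATTTGT (1.75% against 2.54%; 2.47% of all) being the other 3 that were lower. TATTTGT did not pass in the higher-scoring 50% of each list (odds ratio 0.763, exact adjusted p = 0.231). The median share of G and C was 64.3% in windows with a shared peak and 62.0% in the others.

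Most coding promoter peaks had no TGTTTAC, among them those of FBXO32, WIPI1, H1FX, PCMTD1 and ERLEC1. Their windows were therefore searched for every word of 4 letters, counted on both strands, which gives 136 distinct words. This search was chosen after the data were seen and is given with no test. TGTT, the first 4 letters of the heptamer, stood first of the 136 words in both lists by 2 measures. It was in 76.9% of the 1500 shared coding promoter peaks without the heptamer in replicate 1 and in 76.6% of 1506 in replicate 2, against 53.4% of 16550 promoter windows of the same length from genes with no coding promoter peak and no heptamer. Its copies also gathered at the centre. Within 25 bp of the centre, a stretch that makes up 25.4% of the window, lay 35.3% and 40.2% of the copies, while the median word had 25.1% and 25.2% there. The word next below TGTT had 33.3% and 36.2%, and the lowest word 20.8% and 21.7%.

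The counts differed by the letter that followed. TGTTG was in 40.9% and 41.8% of the shared peaks without the heptamer against 20.3% of the control promoters, and 41.6% and 47.1% of its copies lay within 25 bp of the centre. TGTTT was in 41.1% of both against 27.2%, with 36.2% and 41.3% of copies near the centre. TGTTC (21.5% and 21.6% against 21.6%) and TGTTA (11.9% and 12.5% against 14.2%) were not more frequent than in the control, although 30.5% and 36.5% of the TGTTA copies lay near the centre, as did 27.4% and 28.6% of the TGTTC copies. By the gain over control promoters TGTTG stood second of 512 words of 5 letters in both lists, after CGGAA, which is part of the ETS site and had 26.9% and 28.1% of its copies near the centre. The unshared peaks held TGTTG in 28.8% and 29.5%.

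TGTTG was also more frequent at higher scores. In coding promoter peaks without the heptamer it was in 28.5% of the lowest score quartile of the list and 48.6% of the highest in replicate 1 (Wilson 95% intervals 24.3% to 33.2% and 44.6% to 52.7%), and in 26.2% and 41.9% in replicate 2 (22.7% to 30.2% and 39.2% to 44.6%). Either TGTTTAC or TGTTG was found in 51.2% of 1814 shared coding promoter peaks of replicate 1 and in 52.1% of 1827 of replicate 2, and in 31.6% and 33.2% of the unshared ones. The median share of G and C was 63.7% and 63.4% in the shared peaks without the heptamer and 62.4% in the control promoters.

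**Figure D4:**
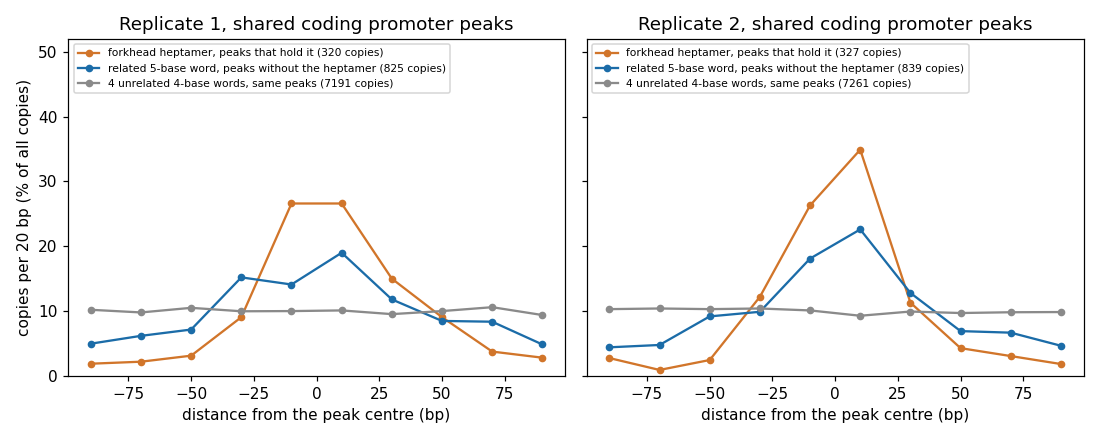
Copies per 20 bp, as a share (%) of all copies, by distance from the peak centre (bp) in shared coding promoter peaks of each replicate: the heptamer TGTTTAC in peaks that hold it (orange), TGTTG in peaks without the heptamer (blue), and 4 unrelated words of 4 letters in the same peaks (grey). The orange and blue lines rise at the centre, where 41.6% and 47.1% of TGTTG copies lie within 25 bp, and the grey line is flat near 10.0%.

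The coding promoter peaks were assigned to genes by the gene name in the deposited lists, which is the gene of the nearest TSS. This gave 2247 genes in replicate 1 and 4016 in replicate 2, of which 1749 were in both and 1697 had overlapping peaks. Of 20052 protein-coding genes of the reference, 1699 had a coding promoter peak in both replicates, which is 8.47%. The shares of the gene lists that follow are read beside this value, without a test. The lists were chosen with earlier results of these data known. The background counts all coding genes, silent ones too, and no expression was measured here.

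**Figure D5:**
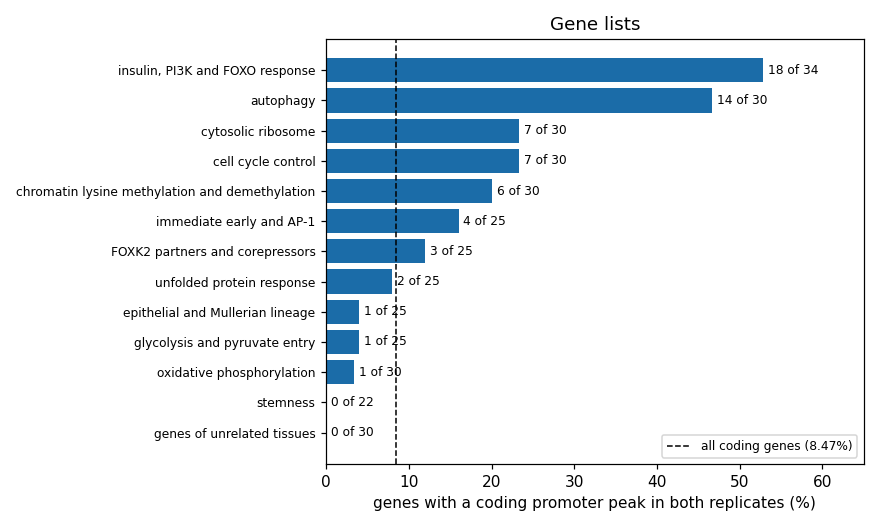
Share of the genes of each list (%) with a coding promoter peak in both replicates, with the count at the end of each bar and the share of all coding genes (8.47%) as a dashed line. The insulin and FOXO list (52.9%) and the autophagy list (46.7%) stand highest, and the lists of stemness genes and of unrelated tissues are at 0.

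Genes of insulin signalling and well-known FOXO targets were among the 2 lists most often occupied, with 18 of 34 (52.9%), the same count as with genes taken from every GENCODE start near a peak. Besides FBXO32, itself a FOXO target of muscle wasting, TXNIP, which limits glucose uptake, had scores of 29.2 and 62.8 in replicates 1 and 2 (ranks 96 and 71). PDK4, the kinase that shuts pyruvate dehydrogenase, had 24.7 and 50.3 (ranks 156 and 145), TSC1, an upstream brake on mTORC1, had 24.7 and 46.7 (ranks 156 and 177), and the apoptosis gene BCL2L11 had 18.7 and 46.0 (ranks 338 and 187). TXNIP, PDK4, TSC1 and BCL2L11 each held TGTTTAC in both replicates, whereas FBXO32 held none. The receptors were present too: IGF1R had scores of 14.9 and 33.6 (ranks 603 and 408), 45 and 51 bp downstream of the TSS, with the heptamer in both lists, and a further peak 464 bp upstream in replicate 1 only.

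Autophagy genes were the other such list, with 14 of 30 (46.7%), or 16 of 30 (53.3%) by GENCODE starts. After WIPI1, its relative WIPI2 had scores of 31.3 and 59.8 (ranks 76 and 88), ATG16L1, part of the complex that attaches LC3 to membrane, had 12.1 and 31.4 (ranks 1091 and 485), RB1CC1, the scaffold of the ULK1 complex, had 11.7 and 17.4 (ranks 1205 and 2310), and the receptor gene CALCOCO2 had 9.81 and 19.3 (ranks 1915 and 1704). No autophagy gene with a peak in both lists held TGTTTAC within 100 bp of the centre. These peaks thus ranged from the top of the list to its lower part, with ATG14, the lowest, at ranks 11262 and 19113.

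Cell cycle genes were at 7 of 30 (23.3%). WEE1 led them, followed by CCNE1, the cyclin of S phase entry (25.7 and 35.2, ranks 141 and 363), CCND3 (16.8 and 29.4, ranks 438 and 561), the pocket protein gene RBL2 (13.8 and 22.6, ranks 776 and 1133) and CCNG2 (14.0 and 20.5, ranks 742 and 1455), a known FOXO target that the insulin list holds as well. WEE1, CCNE1 and CCND3 held the heptamer in both replicates. With genes taken from every GENCODE start near a peak, RBL2 was not among the genes with a peak in either list, and the list had 8 of 30. Ribosomal protein genes were also at 7 of 30, or at 11 of 30 (36.7%) with genes taken from every GENCODE start near a peak. They were led by RPS14 (21.7 and 37.9, ranks 227 and 302), RPL8 (14.5 and 28.1), RPL13 (9.81 and 17.0) and RPL27 (8.87 and 21.1), none of them with the heptamer.

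Writers and erasers of histone lysine methylation were at 6 of 30, with the methyltransferase genes DOT1L (16.2 and 28.0), KMT2A (12.5 and 18.6) and KMT2B (9.62 and 15.9) and the demethylase genes KDM4B (7.73 and 10.3) and KDM3A (5.66 and 11.7) as the best. At KDM3A the peaks of the 2 lists did not overlap, lying 149 bp downstream and 87 bp upstream of the TSS. Immediate early genes were at 4 of 25 (16.0%), namely JUNB (33.0 and 57.6, ranks 71 and 100), FOS (16.2 and 22.9), KLF2 (10.6 and 18.7) and ATF3 (10.8 and 17.8). JUNB alone of these held TGTTTAC. Of the list of partners and corepressors of FOXK2, which also holds FOXK1 and FOXK2 themselves, 3 of 25 (12.0%) had such a peak, TBL1X (8.87 and 13.7), HDAC1 (7.36 and 9.96) and HCFC1 (4.53 and 9.07).

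For a peak in both replicates, the remaining lists were near or under the background by the gene names of the lists. With genes taken instead from every GENCODE start near a peak, an alternative chosen after the data were seen, the background was 2078 of 19667 genes, the unfolded protein response had 4 of 25 (16.0%) and oxidative phosphorylation 5 of 30 (16.7%). The unfolded protein response had 2 of 25 (8.0%), SYVN1, a ubiquitin ligase of the endoplasmic reticulum (13.4 and 18.3), and EIF2AK3, which codes for the stress sensor PERK (7.17 and 15.6). XBP1, HSPA5, CALR, TRIB3, HYOU1 and CREB3L2 had a coding promoter peak in replicate 2 only, with scores of 4.16 to 6.99. Glycolysis had 1 of 25, PDK2 (15.1 and 22.2), oxidative phosphorylation 1 of 30, and the epithelial list 1 of 25, KRT18 (5.47 and 9.52). With a peak in either list, oxidative phosphorylation had 12 of 30, and glycolysis and the unfolded protein response had 8 of 25 each. Beside this, 4514 genes in all had such a peak, with 20052 coding genes in the reference. By this count these lists were above the share of all genes, and the epithelial list, with 4 of 25, was below it. The difference was not tested. No stemness gene of 22 and no gene of unrelated tissues of 30 had a coding promoter peak in both. FZD7 and CD24 of the stemness list had one in replicate 2 only.

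Among the genes that the study names, FOXK2 itself, FOXK1, ERN1, KLF9 and ATXN1 had no coding promoter peak in either list. The study places its ERN1 site in an intron, distal to the TSS. Peaks of these genes outside coding promoters were not looked at here. DDIT4, an inhibitor of mTORC1 induced by stress, had a shared peak with scores of 7.36 and 12.6 (ranks 3872 and 4807), 338 and 336 bp upstream of the TSS. Single genes could hold several such peaks: 41 genes in replicate 1 and 110 in replicate 2 had 2 or more. Up to 3 separate peaks per gene were found in replicate 2, at ABLIM1, FAM214A, PRPSAP2, RABGAP1L, UACA and ZBTB20. At FAM214A, 2 of the 3 were shared, and at PRPSAP2 and ZBTB20 none was.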

How the data were processed

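Per the study's methods and the submitters' processing notes, the authors aligned single-end reads of 2 biological replicates (Bowtie2 2.2.6, hg38) and called and annotated the peaks with HOMER 4.10. Each deposited list gives peak positions, a peak score, which the authors' software scaled within each library, a focus ratio (the fraction of a peak's tags that the authors' software placed on the expected side of its centre), the distance to the nearest TSS, its gene and an annotation. The study computed enrichment of peaks over input, but whether the deposited lists were filtered on it is not given in the sources used here. The lists hold no read totals, so depth is unknown. Their lengths, 12471 and 27281, set the precision of the shares, and intervals cover counting error only.

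Coding promoter peaks were all entries annotated as promoter-TSS of an NM transcript. Members, gene lists and motifs were chosen with earlier results of these data known. Peaks were compared by overlap, motifs within 100 bp of the centre with windows 2000 bp to each side, and shares by Wilson 95% intervals and two-sided Fisher's exact tests, with Benjamini-Hochberg adjustment over motifs. Across the 25 tests of coding promoter peaks every unadjusted p under 0.05 stayed under 0.05 after the same adjustment. The splits by distance, by G and C, by score class and by recovery with the heptamer, the word search and the genes by GENCODE start were added after the data were seen. Named genes were the 15 best shared pairs, up to 5 best genes per list, genes the study names, the 5 best unshared peaks per list and genes with the most peaks, to which a few list genes were added after their values were seen. The steps for overlap and for motifs were first run on simulated data with known answers, and recovered them. The inputs were left out, and some genes that the rule names are not reported here. The tools were Python 3.11.15, pandas 2.3.3, SciPy 1.17.1, pysam 0.24.0, statsmodels 0.14.6 and matplotlib 3.10.9.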

Additional observations from a re-analysis of the deposited data

How the results depend on the processing

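The shares of peaks and of motifs moved with the part of the list used. The coding promoter share, 16.7% as the mean of both lists, was 20.8% in the higher-scoring 50% of each list, 19.4% with lists of equal length and 19.9% with noncoding promoters included. The share with TGTTTAC (12.6%) was 15.9% in the higher-scoring 50% and 17.4% in peaks found in both replicates. The median distance (-48.5 bp) was -46.2 bp, -50 bp in shared peaks and -74.8 bp for peaks nearest to their own transcript. The higher recovery of coding promoter peaks had odds ratios of 1.35 and 1.65. In replicate 1 it no longer passed in the higher-scoring 50% (1.12) or the second score quartile (1.04) and turned in the third (0.927) and the fourth (0.817). In replicate 2 it did not pass with lists of equal length (1.05) or in the fourth quartile (1.01), and turned in the third (0.856). It did pass with lists of equal length in replicate 1 (1.48) and in the higher-scoring 50% in replicate 2 (1.24). Genes with a coding promoter peak in both replicates (1749) ranged from 2247 to 4016 when 1 replicate was left out, since a single list then counts. Genes of the lists rose from 63 to 131 with a peak in either replicate, while all genes with a coding promoter peak rose from 1749 to 4514. With that choice 8 promoter motifs were lower in place of 5 (4 in the higher-scoring 50%), the odds ratio of TGTTTAC in promoters fell from 4.32 to 2.05, TGTTTAT, like TGTTTGC and also TGTTTGT, passed as lower, and the odds ratios of TGTTTAT (1.12) and TATTTAC (1.07) turned to 0.797 and 0.877. The lower TGTTTAC share against other peaks and the higher share in the top 10% kept their direction and side of the threshold under the alternatives of window, score and sharing. In windows with at most 45% G and C the TGTTTAC share no longer differed past the threshold (odds ratios 0.932 and 0.983). The causes were not tested. No paired analysis was possible because the inputs, which carry the same replicate numbers as the FOXK2 samples, were not analysed here.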

Other observations

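Of the coding promoter peaks, 337 (14.7%) in replicate 1 and 558 (13.5%) in replicate 2 lay in the promoters of coding genes on both strands, so the nearest gene is not the only candidate there.

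Coding promoter peaks were few on the X chromosome, with 3.18 peaks per 100 coding genes in replicate 1 and 11.9 in replicate 2. The autosomes had 9.31 to 14.1 and 17.5 to 24.5. The median score percentile of coding promoter peaks was 74.2 and 78.5 on chromosome 11 and 74.2 and 76.6 on chromosome 14. Other peaks there had medians of 54.9 and 60.1 (chromosome 11) and 54.9 and 58.3 (chromosome 14), against 49.1 and 46.9 over all chromosomes. Coding promoter peaks were also high on chromosomes 2 (71.4 and 77.9) and 13 (71.4 and 77.6). Promoters of noncoding transcripts held 421 and 776 peaks, of which 78.4% and 42.5% were recovered in the other list.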
